A study of Mus musculus with 7 samples.

Results

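Cell cycle phase genes are transcripts whose level rises and falls as a cell copies its DNA and divides, and 38 of them, 15 of S phase and 23 of G2 and mitosis (G2/M), were followed here among the 33696 genes of the count tables. The members were taken by gene symbol from fixed lists and all 38 were found. The S members were Mcm2, Mcm3, Mcm4, Mcm5, Mcm6, Pcna, Rrm1, Rrm2, Tyms, Gins2, Cdc45, Cdc6, Uhrf1, Slbp and Tk1. The G2/M members were Mki67, Top2a, Cdk1, Ccnb1, Ccnb2, Ccna2, Cdc20, Plk1, Aurka, Aurkb, Bub1, Bub1b, Birc5, Cenpa, Cenpe, Cenpf, Kif11, Kif20b, Kif23, Nusap1, Tpx2, Ube2c and Hmmr. They were measured by single-cell RNA sequencing in 7 mouse malignant peripheral nerve sheath tumors (MPNSTs), aggressive sarcomas of the nerve sheath, grown from JW23.3 cells. JW23.3 is a single male mouse MPNST line without functional Nf1 and Trp53, so all 7 tumors share that genotype and no other line was analysed here. The cells were placed under the flank skin of immunocompetent female C57/B6 wildtype mice aged 5 to 6 weeks. In 4 mice the tumor was irradiated with 5 daily X-ray fractions of 2 Gy (labelled 2Gyx5) behind a lead shield that covered the rest of the body, 3 control mice (labelled Control) were not irradiated, and 1 library was made from each tumor at day 21. The study asked how irradiation alters MPNST cells and the host cells around them, and the comparison made here is whether the phase genes differed with irradiation in each kind of cell.

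In the cell cycle, E2F transcription factors released from the retinoblastoma family switch on the S genes, which license and unwind replication origins, make nucleotides and load the sliding clamp. Later, MuvB complexes with B-Myb and FoxM1 switch on the G2/M genes, which build the spindle, hold the checkpoint and destroy cyclins at anaphase. Ionizing radiation breaks DNA and halts dividing cells through p53 and the checkpoint kinases, and a line that lacks Trp53 has lost the p53 branch of that arrest.

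The promoters of members of each phase carried different short words in the RefSeq windows (GRCm38.p6, 250 bases before to 50 bases after the transcription start, 34 windows of 33 members). The words searched on both strands were the cell cycle homology region CHR, spelled TTTGAA, the box spelled CCAAT, and 4 E2F words, which are TTTCCCGC, then TTTGGCGC, then TTTCGCGC and lastly TTTGCCGC. CHR, the word that MuvB complexes read, was found in 15 of 20 G2/M windows (75.0%), in 2 of 14 S windows (14.3%) and in 17.9% of all 32851 windows of the same length. An E2F word was found in 5 of 14 S windows (35.7%), in 1 of 20 G2/M windows (5.00%, Cdk1) and in 2.26% of all windows. The 5 S windows with an E2F word were those of Cdc6, Mcm3, Mcm5, Mcm6 and 1 of Uhrf1. CCAAT was common to both phases, in 78.6% of S and 85.0% of G2/M windows against 37.4% of all windows, and CHR together with CCAAT was in 70.0% of G2/M windows against 6.95% of all. E2F words of opposite strands can overlap and were counted separately. A match is a description of the letters and not a measured binding site. A pair of windows from each phase is shown, since their letters are what the lists differ in beyond their levels. Capitals mark the CHR, CCAAT and E2F words on either strand. Mcm5 and Mcm6 encode subunits of the replicative helicase, Ccnb2 is a mitotic cyclin, and Cdc20 activates the ligase that destroys mitotic cyclins. The windows are Mcm5 at chr8:75109259-75109558 (plus strand), Mcm6 at chr1:128359656-128359955 (minus strand), Ccnb2 at chr9:70421505-70421804 (minus strand) and Cdc20 at chr4:118437294-118437593 (minus strand), each written 5′ to 3′ on its own strand.
Mcm5: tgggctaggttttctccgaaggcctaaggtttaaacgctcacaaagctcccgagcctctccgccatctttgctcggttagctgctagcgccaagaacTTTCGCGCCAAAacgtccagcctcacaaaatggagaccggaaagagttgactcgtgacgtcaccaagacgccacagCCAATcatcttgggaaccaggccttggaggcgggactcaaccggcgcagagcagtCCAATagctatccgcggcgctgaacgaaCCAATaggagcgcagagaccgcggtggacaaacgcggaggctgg
Mcm6: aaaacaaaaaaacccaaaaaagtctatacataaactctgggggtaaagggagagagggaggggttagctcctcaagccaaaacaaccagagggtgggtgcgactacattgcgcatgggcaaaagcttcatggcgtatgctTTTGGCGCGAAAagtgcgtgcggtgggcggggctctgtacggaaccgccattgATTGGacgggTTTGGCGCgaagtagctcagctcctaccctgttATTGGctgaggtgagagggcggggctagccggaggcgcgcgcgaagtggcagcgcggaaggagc
Ccnb2: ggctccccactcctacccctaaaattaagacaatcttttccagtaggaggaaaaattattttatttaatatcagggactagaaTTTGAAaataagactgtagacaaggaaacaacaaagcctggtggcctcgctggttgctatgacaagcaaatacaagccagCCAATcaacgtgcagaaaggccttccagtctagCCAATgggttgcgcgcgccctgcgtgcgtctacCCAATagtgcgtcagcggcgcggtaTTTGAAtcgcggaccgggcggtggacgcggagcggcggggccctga
Cdc20: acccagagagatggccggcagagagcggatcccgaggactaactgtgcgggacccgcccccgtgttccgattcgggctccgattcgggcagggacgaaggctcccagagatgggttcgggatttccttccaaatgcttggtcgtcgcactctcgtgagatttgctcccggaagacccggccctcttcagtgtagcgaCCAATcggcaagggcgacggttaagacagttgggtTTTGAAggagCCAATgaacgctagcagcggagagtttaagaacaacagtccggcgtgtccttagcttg
The Mcm5 window held 3 CCAAT words and 2 overlapping E2F words, and the Mcm6 window held 3 E2F words and 2 CCAAT words on the opposite strand. The Ccnb2 window held 2 CHR and 3 CCAAT words, and the Cdc20 window held 1 CHR word between 2 CCAAT words.

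In all, 39537 cells were deposited with 646559899 UMIs (unique molecular identifiers, each a counted transcript molecule), and a library held 53496570 to 153044123 of these. The median depth ran from 6058.5 UMIs per cell in control 2 to 17930.5 in control 1, between 0.837% and 1.26% of a library's barcodes also occurred in another library, and mitochondrial transcripts took 2.58 to 4.52% of UMIs. The libraries were parted into 2 technical sets by cell number, depth, detected genes, mitochondrial share and dissociation stress transcripts. The sets are drawn from these values and no label gives them. Of 63 partings compared, this one left the least variation within sets, a share of 0.546 against 0.619 for the next best. Set 1 holds irradiated 1 and controls 2 and 3, and set 2 holds irradiated 2, 3 and 4 and control 1. The differences in shares and ratios are also given within each set. A set holds 1 irradiated or 1 control tumor, so these values rest on that tumor. Marker gates assigned 31423 of 34300 retained cells to 5 classes: 16245 tumor cells, 12976 macrophages, 1433 T and NK cells, 520 endothelial cells and 249 dendritic cells. The cells were chosen by these markers, so their high shares are fixed by the gate and are given as a description. Prrx1 was found in 93.9% of tumor cells, C1qa in 91.3% of macrophages, Cd3e in 69.9% of T/NK cells, Cdh5 in 92.7% of endothelial cells and Flt3 in 68.7% of dendritic cells. Several markers were shared or rare. Ctss was found in 97.3% of macrophages and 92.8% of dendritic cells, and Zbtb46 in 71.1% of dendritic and 31.9% of tumor cells. Of the other dendritic markers Cd209a was found in 24.9%, Xcr1 in 14.1% and Cd207 in 2.41% of dendritic cells, and of the tumor markers Igf2 in 0% and Sox11 in 0.00616% of tumor cells. Tumor cells had the greatest depth (median 21814 UMIs) and T/NK cells the least (3100).

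A cell was called cycling when at least 3 UMIs from at least 2 members were found after every cell had been thinned to 3000 UMIs, and shallower cells were left out. Cycling cells made up 27.7% of tumor cells (4100 of 14814, 95% Wilson interval 27.0 to 28.4%, counting error only) and 25.1% of macrophages (2538 of 10108, 24.3 to 26.0%). The share was 38.5% of T/NK cells (285 of 741, 35.0 to 42.0%), 22.4% of endothelial cells (86 of 384, 18.5 to 26.8%) and 20.7% of dendritic cells (43 of 208, 15.7 to 26.7%). As a background, mature dendritic cells, which are not expected to divide, gave 5.66% (3 of 53, 1.94 to 15.4%), below the interval of every class named here. These 53 cells are among the 208 dendritic cells, so against that class a part is compared with its whole. Without thinning the shares were 73.2% of tumor cells, 46.8% of macrophages, 38.03% of T/NK cells, 45.0% of endothelial cells, 44.6% of dendritic cells and 30.8% of mature dendritic cells. Many cells stood near the threshold, with 1420 tumor cells and 1599 macrophages at exactly 2 member UMIs and 611 tumor cells and 752 macrophages at exactly 3. Thus the call is a range of a continuous count and not a cell type.

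By this call the mean share of cycling cells was highest in T/NK cells. It exceeded that of macrophages in 7 of 7 tumors, by 12.9 ± 5.59 percentage points (mean ± SD, n = 7), that of endothelial cells in 7 of 7 by 13.6 ± 6.25 and that of dendritic cells in 7 of 7 by 16.9 ± 10.3. Tumor cells exceeded T/NK cells in 1 of 7 tumors. The order changed with the depth kept and with the call. At 3000 UMIs but with 5 or more member UMIs the means were 21.3% for tumor cells, 19.4% for T/NK cells and 14.4% for macrophages. At 2000 UMIs the means of the 7 tumors were 23.6% for tumor cells, 21.5% for T/NK cells and 17.1% for macrophages, and at 5000 UMIs they were 34.7%, 70.2% and 40.7%. At 3000 UMIs 48.3% of T/NK cells were too shallow to be counted, from 18.6 to 81.7% per library, and the position of T/NK cells therefore describes their deeper cells. Cycling cells also held more UMIs before thinning than the other cells of their class and tumor, by 1.52-fold in tumor cells (range 1.40 to 1.75), 1.39-fold in macrophages and 1.16-fold in T/NK cells, each in 7 of 7 tumors (two-sided exact permutation p = 0.0156, the smallest that 7 pairs allow, adjusted p = 0.0156 over 3 classes). The part of this depth difference in the shares above was not tested.

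Irradiated and control tumors overlapped in the share of cycling tumor cells. The 4 irradiated tumors gave 842 of 3069, 173 of 836, 427 of 1445 and 254 of 795 tumor cells, or 27.4, 20.7, 29.6 and 31.9%. The 3 controls gave 650 of 2739, 709 of 3043 and 1045 of 2887 tumor cells. Control 3 was the highest of all 7 at 36.2% and irradiated 2 the lowest. The means were 27.4 ± 4.84% and 27.7 ± 7.32% (SD, n = 4 and 3), a difference of −0.335 percentage points that turned to 3.89 without control 3. It was −2.31 within technical set 1 and 3.67 within set 2, and 0.853 with the set as a term. In macrophages the irradiated tumors gave 23.1, 22.6, 25.5 and 24.2% and the controls 24.3, 28.6 and 25.7%. The irradiated values were the lower on average (23.8 ± 1.31 against 26.2 ± 2.17%, a difference of −2.35 points), and 3 of 4 lay below every control, but irradiated 3 lay above control 1. This difference was −4.05 points within set 1 and −0.243 within set 2. Macrophages too shallow to be counted were 23.8, 12.4, 11.6 and 14.3% in irradiated and 8.42, 37.5 and 25.1% in control tumors. The part of these left-out cells in the difference was not tested. G2/M-led macrophages, defined below, were 9.60 ± 0.749% of cells in irradiated and 11.8 ± 1.55% in control tumors. The groups overlapped (8.85 to 10.3% against 10.0 to 12.8%), and the difference of −2.21 points was −3.64 within set 1 and −0.244 within set 2. In T/NK cells the irradiated tumors gave 29.4, 43.6, 38.7 and 39.8% and the controls 42.1, 35.2 and 35.8%, with means of 37.9 ± 6.02 and 37.7 ± 3.83%, and the highest and the lowest tumor were both irradiated. The difference of 0.174 points was −6.08 within set 1 and −1.41 within set 2, and −3.61 with the set as a term.

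The rarer classes were less certain. Endothelial cells gave 25.0, 25.0, 24.2 and 25.9% in irradiated and 33.3, 11.8 and 24.2% in control tumors (25.0 ± 0.689 against 23.1 ± 10.8%). Cycling endothelial cells were 16 of 64, 3 of 12, 8 of 33 and 7 of 27 in irradiated tumors. In controls they were 17 of 51, 12 of 102 and 23 of 95. The 95% Wilson interval of irradiated 2 was 8.89 to 53.2%, so the irradiated SD is small beside the counting error. The minimum of 20 cells was not applied to the shares, here or in dendritic cells. The irradiated tumors lay within the range of the controls, and the difference of 1.94 points was 7.01 within set 1, −8.28 within set 2 and −1.08 with the set as a term. Cycling dendritic cells were 10 of 43, 2 of 15, 3 of 22 and 10 of 46 in irradiated and 7 of 25, 6 of 18 and 5 of 39 in control tumors (18.0 ± 5.24 against 24.7 ± 10.6%), and control 3 lay below all 4 irradiated tumors. This difference of −6.73 points was 0.179 within set 1 and −11.8 within set 2. Dendritic cells too shallow to be counted were 52.6% in control 2, against 3.85 to 15.2% in the other tumors. As each share is a score over the members, no p-value is given for it.

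**Figure D1:**
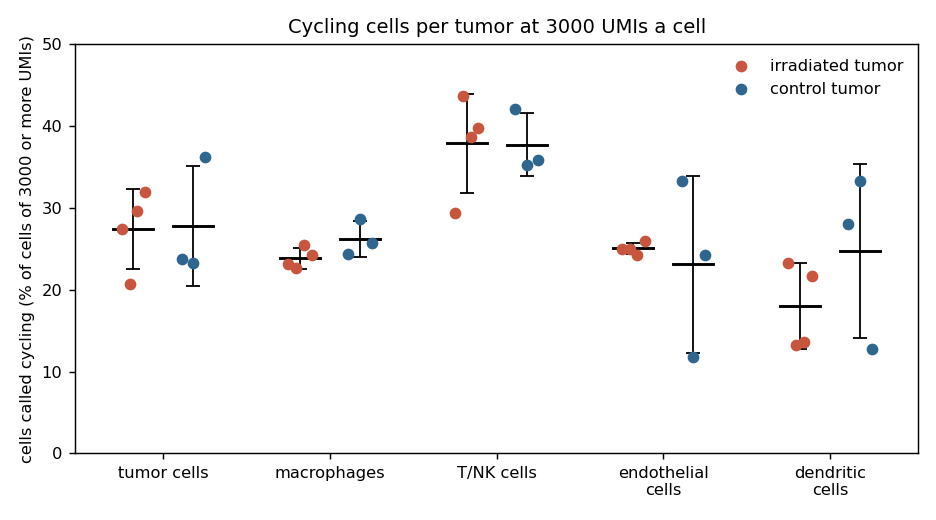
The share of cells called cycling (percent of cells with 3000 or more UMIs, vertical axis) is plotted for each of the 7 tumors in 5 cell classes, with 1 point per tumor, irradiated in red and control in blue, and with the mean and SD of each group as black bars. The groups overlap in every class, T/NK cells lie between 29.4 and 43.6%, and macrophages span the narrowest range, 22.6 to 28.6%.

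Among cycling cells, the balance of S against G2/M transcripts differed between tumor cells and macrophages. Cells with more G2/M than S UMIs (G2/M-led) were 57.9% and cells with more S UMIs (S-led) were 36.5% of cycling tumor cells, while 43.2% and 52.3% of cycling macrophages were G2/M-led and S-led. T/NK cells were 47.7% G2/M-led and 44.9% S-led, endothelial cells 41.9 and 52.3%, and dendritic cells 48.8 and 44.2%. Over all cells of a class, the S members summed to 567 ± 79.3 CPM (the UMIs of a gene scaled to 1000000 UMIs of the class in that tumor, as mean ± SD of 7 tumors) in tumor cells and 514 ± 21.4 in macrophages, and the G2/M members to 1089 ± 197 and 717 ± 79.7 CPM. Each UMI is 1 tagged 3′ end, so these levels do not grow with transcript length.

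The log2 ratio of S to G2/M UMIs in tumor cells was −1.02, −0.72, −0.96 and −0.99 in irradiated and −0.85, −1.06 and −0.94 in control tumors. In macrophages it was −0.39, −0.22, −0.64 and −0.44 in irradiated and −0.37, −0.62 and −0.63 in control tumors. Tumor cells lay below the macrophages of the same tumor in 7 of 7 tumors, by 0.46 ± 0.11 on the log2 scale, and no tumor's macrophages reached any tumor's tumor cells. These sums include the cells not called cycling, which also held member UMIs. S-led cells exceeded them by a median of 7.77-fold (tumor cells) and 6.23-fold (macrophages) for S members. G2/M-led cells exceeded them by 73.2-fold and 50.4-fold for G2/M members. The part of cells not called cycling in the ratio was not tested. The difference was −0.56 ± 0.13 under a stricter gate and −0.48 ± 0.13 over all deposited cells, each in 7 of 7. It was −0.47 ± 0.14, in 7 of 7, without Slbp and Top2a, the most abundant member of each phase over all retained cells pooled. In macrophages the mean of Pcna was above that of Slbp and the mean of Cenpa above that of Top2a. The difference without Pcna or Cenpa was not computed. Free tumor RNA in the macrophage droplets was gauged with 5 tumor markers. They stood in macrophages at 1.18% of their tumor cell level (median of 7 tumors, range 0.666 to 3.06%). The S members stood at 89.5% and the G2/M members at 69.2%. In T/NK cells the same 3 values were 1.33, 108 and 85.3%. Droplets rich in tumor markers are kept out of the host classes by the gate, so the low marker values are partly fixed by it. The part of free tumor RNA in the member levels was not tested.

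The phase balance of irradiated and control tumors overlapped in the abundant classes. The mean log2 ratio was −0.92 ± 0.14 against −0.95 ± 0.10 in tumor cells, a difference of 0.03 that was −0.02 within set 1 and −0.04 within set 2. The ratio was −0.42 ± 0.17 against −0.54 ± 0.15 in macrophages, where the difference was 0.23 within set 1 and −0.06 within set 2. T/NK cells gave −0.36, −0.51, −0.78 and −0.66 in irradiated and −0.96, −0.47 and −0.24 in control tumors, with both the highest and the lowest value in controls, and their difference of −0.02 was −0.01 within set 1 and 0.31 within set 2. Endothelial cells gave −0.22, −2.81, −0.73 and −2.03 in irradiated and −0.72, −0.20 and −0.46 in control tumors. Irradiated 2 and 4 stood far below the rest, and the difference of −0.99 was 0.11 within set 1 and −1.14 within set 2. In these tumors the 3 endothelial cells richest in G2/M UMIs held 91.4% and 91.3% of all G2/M UMIs of the class, out of 21 and 32 cells, against 51.0 to 72.9% in the other tumors. Those cells were gated as endothelial, so their marker values are partly fixed by the gate and are given as a description. Endothelial markers stood at a median of 57.3 and 82.6 UMIs per 10000, against 79.0 and 86.8 in the class. Tumor markers stood at a median of 1.38 and 0 (highest 4.54 and 0.317), against 32.4 and 22.5 in the tumor cells of the same tumors. The median depth of those cells was 17604 and 21307 UMIs, against 7266 and 11902 in the class. Whether they were doublets was not tested. Irradiated 2 held 17 dendritic cells, under the minimum of 20, and was dropped from the dendritic ratio and fit. The other dendritic ratios were −1.32, −0.58 and −1.58 in irradiated and −1.15, −0.14 and −0.71 in control tumors, and overlapped. Their difference of −0.50 was −0.90 within set 1 and 0.07 within set 2.

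**Figure D2:**
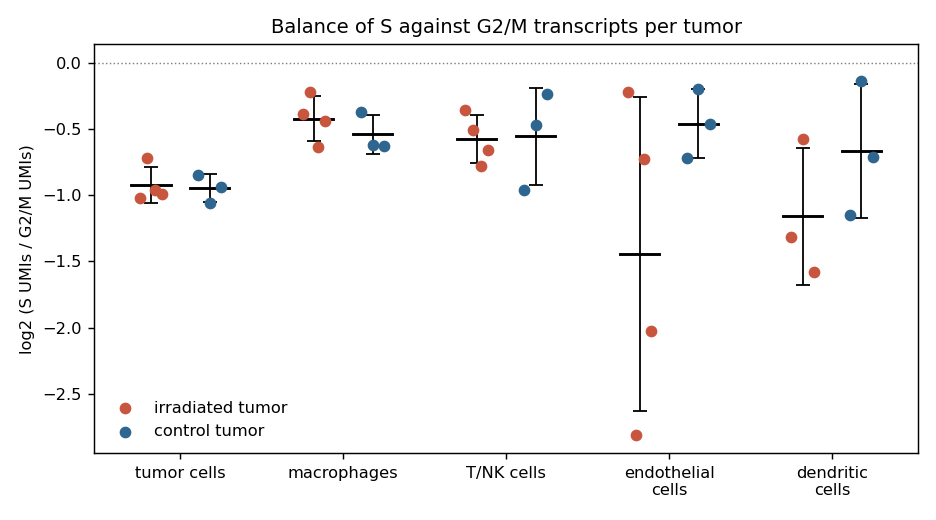
The log2 ratio of S to G2/M UMIs (vertical axis) is plotted for each tumor and cell class, irradiated in red and control in blue, with group means and SDs as black bars. Tumor cells lie between −1.06 and −0.72 and macrophages between −0.64 and −0.22, and the 2 low endothelial points are irradiated 2 at −2.81 and irradiated 4 at −2.03.

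The assignment of members to phases was checked in cells called without the gene in question. With a member's own UMIs left out of the call, all 23 G2/M members were higher in G2/M-led than in S-led cells, with a median log2 ratio of 2.45 in tumor cells and 2.71 in macrophages. The S members were less sharply bound to their phase. Of 15, 12 were higher in S-led tumor cells and 11 in S-led macrophages, and the medians of G2/M-led over S-led were −0.51 and −0.69.

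Levels of single members spanned an order of magnitude in tumor cells. Among the S members, Slbp, which binds histone mRNA, stood at 82.9 ± 7.26 CPM (SD, n = 7) in tumor cells and 72.3 ± 8.08 in macrophages. Pcna, the sliding clamp, stood at 55.5, 50.9, 66.2 and 73.8 CPM in the tumor cells of irradiated and 54.3, 52.9 and 63.0 of control tumors, and at 97.0, 110, 103 and 115 and 105, 93.7 and 96.7 in their macrophages. Every macrophage value of Pcna lay above every tumor cell value. Mcm5 stood at 27.6, 26.6, 33.1 and 28.9 and 23.5, 21.5 and 33.8 CPM in tumor cells, and at 21.7, 32.6, 29.3 and 28.2 and 26.0, 22.5 and 21.2 in macrophages, where the classes overlapped. The lowest S members in tumor cells were Cdc6, which loads the helicase (10.9 CPM), and Cdc45, which travels with it (14.3 CPM).

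Among the G2/M members, Top2a, the topoisomerase that untangles sister chromatids, was the most abundant in tumor cells. It stood at 137, 112, 160 and 185 CPM in irradiated and 117, 132 and 183 in control tumor cells, and at 80.7, 87.4, 115 and 97.9 and 95.9, 93.8 and 86.6 in macrophages. Birc5 (survivin, of the chromosomal passenger complex) followed in tumor cells at 108 ± 40.0 CPM. It had 162 CPM in irradiated 1 and 156 in control 3, against 65.0 to 112 in the other 5 tumors. Cdc20 stood at 33.3, 28.1, 34.8 and 29.0 and 23.8, 33.0 and 43.3 CPM in tumor cells and at 10.1, 9.24, 11.4 and 10.4 and 9.62, 11.7 and 12.1 in macrophages, with no overlap between the classes. Cenpe, the kinetochore motor, stood at 68.5 CPM in tumor cells and 25.9 in macrophages, and Ccna2 (cyclin A2, of S phase and G2) at 58.4 CPM in tumor cells and 16.8 to 27.5 in the 7 tumors' macrophages. Cenpa, the histone variant of centromeres, was at 79.6 ± 15.2 CPM in tumor cells and 101 ± 27.1 in macrophages. A UMI was found in 10.8% of tumor cells for Cenpa and 12.0% for Pcna at 3000 UMIs, beside 17.0% of the mature dendritic cells for each, so neither gene alone marks a dividing cell here.

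**Figure D3:**
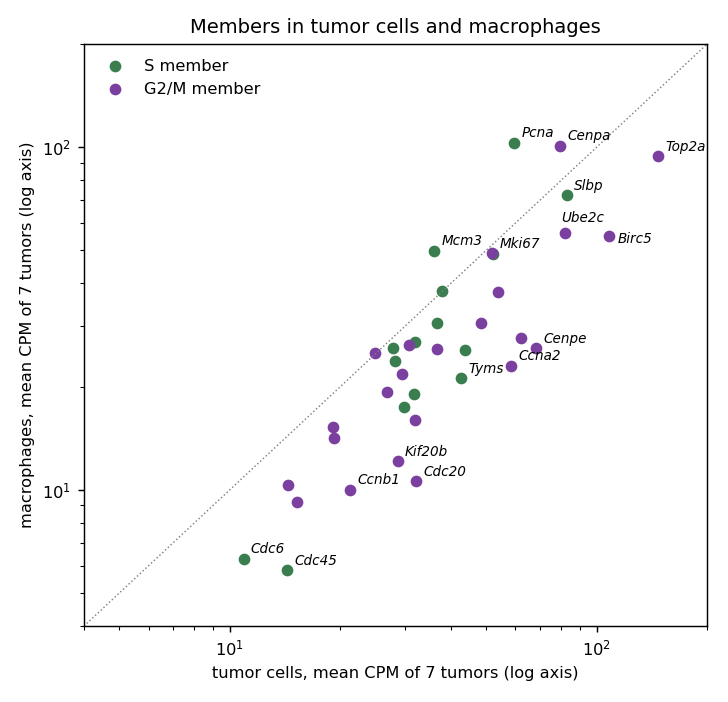
Mean levels of the 38 members over 7 tumors (CPM, both axes logarithmic) are plotted in tumor cells (horizontal) against macrophages (vertical), S members in green and G2/M members in purple, with equal levels on the dotted line. Pcna (59.5 and 103 CPM) and Cenpa lie above the line, while Cdc20 (32.2 and 10.6 CPM), Cenpe and Ccna2 lie farthest below it.

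Each host class was then tested against the tumor cells of the same tumors with edgeR's quasi-likelihood test, tumor as block and Benjamini-Hochberg adjustment over all genes. Macrophages differed from tumor cells in most genes, 40.4% of 17171 tested being called higher and 44.6% lower, and 25 of 38 members were called, fewer in proportion than all genes. By phase, 7 S members were higher and 6 lower, and 4 G2/M members were higher and 8 lower. The direction of many members rested on the scaling. Without TMM factors the median of all genes moved from −0.09 to −0.54 (log2), 30.3% of genes were higher and 57.0% lower, and the members' counts became 2 S higher and 9 lower, and 1 G2/M higher and 20 lower. Members called in 1 direction under both scalings numbered 17.

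Of those 17 members, 3 were higher in macrophages. Pcna was higher by 1.24 ± 0.08 (log2 fold change ± SE, edgeR adjusted p = 9.99e-08; 0.80 by library size), Mcm3 of the helicase by 0.95 ± 0.15 (adjusted p = 0.000142; 0.50) and Cenpa by 0.78 ± 0.08 (adjusted p = 3.05e-06; 0.33). The other 14 were lower. Cdc20 fell by 1.13 ± 0.10 (log2 scale; adjusted p = 7.44e-07), Cenpe by 0.96 ± 0.10 (5.94e-06) and Ccna2 by 0.87 ± 0.14 (0.000162), all of mitosis or its entry. Cdc45 fell by 0.84 ± 0.10 (1.47e-05), and Kif20b, a motor of cytokinesis, by 0.78 ± 0.10 (2.11e-05). Cenpf, Ccnb1, Tyms, Hmmr, Birc5, Rrm2, Cdc6, Gins2 and Uhrf1 were lower by smaller amounts, from −0.71 for Cenpf to −0.29 for Gins2, but 3 of these calls rested on single tumors. Birc5 was not called without irradiated 1 (−0.31, edgeR adjusted p = 0.0696) or irradiated 3 (−0.45, 0.0545), and Cdc6 without irradiated 1 (−0.34, 0.0582) or irradiated 3 (−0.32, 0.0706). Uhrf1 was not called without irradiated 1, 3 or 4 (edgeR adjusted p = 0.0991, 0.0873 and 0.0765). Mki67, the usual proliferation marker, was higher by 0.39 ± 0.08 with TMM and lower by 0.06 by library size, so no direction is drawn for it.

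In T/NK cells 29 of 38 members were called, beside 27.6% of 17018 genes higher and 43.6% lower. Of the S members 3 were higher and 7 lower, and of the G2/M members 4 and 15. Mcm6 was higher by 0.96 ± 0.12 (edgeR adjusted p = 9.74e-08), at 102, 111, 126 and 142 CPM in irradiated and 97.3, 67.2 and 121 in control tumors, against 41.7 to 63.6 in tumor cells. The T/NK values of Mcm6 lay above every tumor cell value. Slbp (0.62 ± 0.11), Cenpa (0.74 ± 0.13), the spindle motor Kif11 (0.68 ± 0.19) and Nusap1 (0.60 ± 0.19) were also higher. Gins2, of the helicase complex, was lower by −1.82 ± 0.19 (adjusted p = 7.98e-09) and stood at 7.79 to 12.8 CPM against 26.0 to 40.0 in tumor cells. Cdc20 was lower by −1.80 ± 0.22, Cenpe by −1.68 ± 0.18, Birc5 by −1.53 ± 0.32 and Ccna2 by −1.49 ± 0.35. By library size 28 of these 29 members were still called in the same direction, Bub1b was lost (edgeR adjusted p = 0.0591) and Kif23 was gained as higher (0.46, 0.0160). DESeq2 called 26 and lost Aurka, Aurkb and Bub1b. Mki67 was called higher, but its call was lost under a stricter gate (0.11, edgeR adjusted p = 0.525). It was also lost without irradiated 2 (0.21, edgeR adjusted p = 0.194), among other settings.

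Between endothelial and tumor cells 12 of 38 members were called, beside 58.7% of 16877 genes in either direction (3888 higher and 6011 lower), and 11 of the 12 were S members. That share of S members rested on irradiated 2, which held 21 endothelial cells. Without it 16 members were called, among them 10 S members and the G2/M members Top2a (−0.91, edgeR adjusted p = 0.0438), Ccna2 (−1.36, 0.00758), Birc5 (−1.28, 0.0179), Cenpe (−1.42, 0.0191) and Kif20b (−0.81, 0.0258), all lower. Tyms, which makes thymidylate, was higher by 0.42 ± 0.14 (edgeR adjusted p = 0.0120). Gins2 was lower by −1.96 ± 0.23 (1.95e-07), Cdc45 by −1.50 ± 0.31 (0.000269), Mcm6 by −0.71 ± 0.17 (0.000862), and Mcm5 was called lower too, as was Tk1 by −0.89 ± 0.22 (0.00255). Of the G2/M members Bub1b, of the spindle checkpoint, was lower by −0.76 ± 0.23 (0.00727), a call that was lost by library size (adjusted p = 0.0542) and with DESeq2 (0.0761). By library size 7 members were called, 1 S member higher, 6 lower and 0 G2/M members.

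In dendritic cells 10 members were called, beside 22.9% of 15688 genes higher and 36.7% lower. The kinesin Kif23 was higher by 0.92 ± 0.23 (edgeR adjusted p = 0.000867), Mki67 by 0.59 ± 0.21 (0.0136) and Pcna by 0.55 ± 0.20 (0.0156). The calls of Mki67 and Pcna were lost without control 1 (0.47, adjusted p = 0.0926, and 0.31, adjusted p = 0.215), among other settings. Cdc20 was lower by −1.53 ± 0.34 (0.000162), Cenpf by −1.30 ± 0.23 (5.91e-06), Mcm2 by −1.29 ± 0.32 (0.000576) and Cenpe by −0.94 ± 0.24 (0.00129). Cdc20 and Cenpe were thus called lower than in tumor cells in macrophages, T/NK cells and dendritic cells, each against the same tumor cells, while in endothelial cells they gave −0.53 ± 0.55 and −1.15 ± 0.45 and were not called. For Cenpe this rested on the setting, since it was called lower in endothelial cells with DESeq2 (−1.08, adjusted p = 0.0153), without irradiated 2 (−1.42, edgeR adjusted p = 0.0191) and without irradiated 4 (−1.42, 0.0400), the tumors in which 3 cells held most G2/M UMIs. Whether the classes differ in these changes was not tested.

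The genes that govern the cycle but are not members were read from a list of 43 regulators. Against tumor cells, 19 of 43 regulators were higher and 17 lower in macrophages, beside 40.4% and 44.6% of all genes (9 and 23 by library size, beside 30.3% and 57.0%). In T/NK cells 15 of 43 were higher and 18 lower, beside 27.6% and 43.6% of all genes. In endothelial cells 7 and 20 of 43 were called, beside 58.7% of all genes in either direction, and in dendritic cells 10 and 19 of 42, beside 22.9% and 36.7%. Nothing particular to the list is read from these counts. Cdkn1a (p21), the p53-induced inhibitor of cyclin-dependent kinases, was higher in every host class, by 5.23 ± 0.29 in macrophages, 4.41 ± 0.18 in dendritic cells, 3.63 ± 0.36 in endothelial cells and 2.35 ± 0.16 in T/NK cells (log2 ± SE). The imprinted inhibitor Cdkn1c was lower in all 4 classes, by −2.26, −4.64, −1.69 and −3.99 in macrophages, T/NK, endothelial and dendritic cells, and so was Cdkn2a, by −3.61, −2.55, −3.07 and −3.30. Ccnd1 (cyclin D1) was lower by −5.25 ± 0.19 in T/NK cells.

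Cycling cells were next compared with the other cells of the same class and tumor. The cells had been divided by the members' UMIs alone, so the rise of all 38 members, by medians of 2.83 for S and 5.66 for G2/M in tumor cells and of 2.65 and 5.10 in macrophages, is fixed by that choice and is no finding. Of all genes 34.4% of 17397 were higher and 40.4% lower in cycling tumor cells, and in cycling macrophages 47.1% of 12807 were called in either direction (2989 higher and 3045 lower). The regulators' UMIs had no part in the choice, but genes that vary with the cycle follow the members. The regulators' counts and p-values are therefore a description and no independent evidence. In tumor cells 34 of 42 tested regulators were higher and 6 lower, and in macrophages 34 and 5, beside those background shares. All 15 licensing and checkpoint genes were higher in both classes, as were 11 of 13 pocket proteins and transcription factors. The mitotic phosphatase Cdc25c was higher by 5.73 ± 0.11 in tumor cells and 5.27 ± 0.26 in macrophages, and Foxm1, which drives the G2/M genes, by 3.84 ± 0.07 and 5.11 ± 0.20 (all edgeR adjusted p at most 2.19e-14). Gmnn (geminin), which blocks relicensing of origins, rose from 4.19 ± 0.877 to 69.5 ± 10.1 CPM in tumor cells and from 18.4 ± 2.88 to 101 ± 8.57 in macrophages, with no overlap in either class.

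The G1 cyclins and the inhibitors are given by class. Ccnd1, cyclin D1, stood at 113 ± 21.7 CPM in other and 419 ± 53.9 in cycling tumor cells (80.1 to 142 against 325 to 460, log2 2.00 ± 0.05), and at 275 ± 85.8 and 336 ± 70.8 in macrophages, where the ranges overlapped (0.27 ± 0.05). Ccnd3 (cyclin D3) was lower in cycling tumor cells, 113 ± 20.6 against 357 ± 100 CPM (−1.54 ± 0.05), and by −0.23 ± 0.05 in cycling macrophages. Cdkn2c (p18), an inhibitor of CDK4 and CDK6, stood at 90.8 ± 10.0 and 80.7 ± 8.15 CPM in other and cycling tumor cells (−0.08 ± 0.05, edgeR adjusted p = 0.138, or −0.17 with adjusted p = 0.00353 by library size), but at 14.1 ± 5.78 and 70.9 ± 8.82 in macrophages (2.30 ± 0.19, adjusted p = 5.08e-05). Whether these changes differ between tumor cells and macrophages was not tested. Cycling tumor cells also carried fewer transcripts of the tumor markers, 95.3 to 114 UMIs per 10000 against 219 to 251 in other tumor cells. Col1a1 stood at 2148 ± 407 against 5967 ± 893 CPM, whereas Crabp1, a retinoic acid binding protein, stood at 2465 against 1303 CPM. The part of that difference in the regulators' values was not tested.

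**Figure D4:**
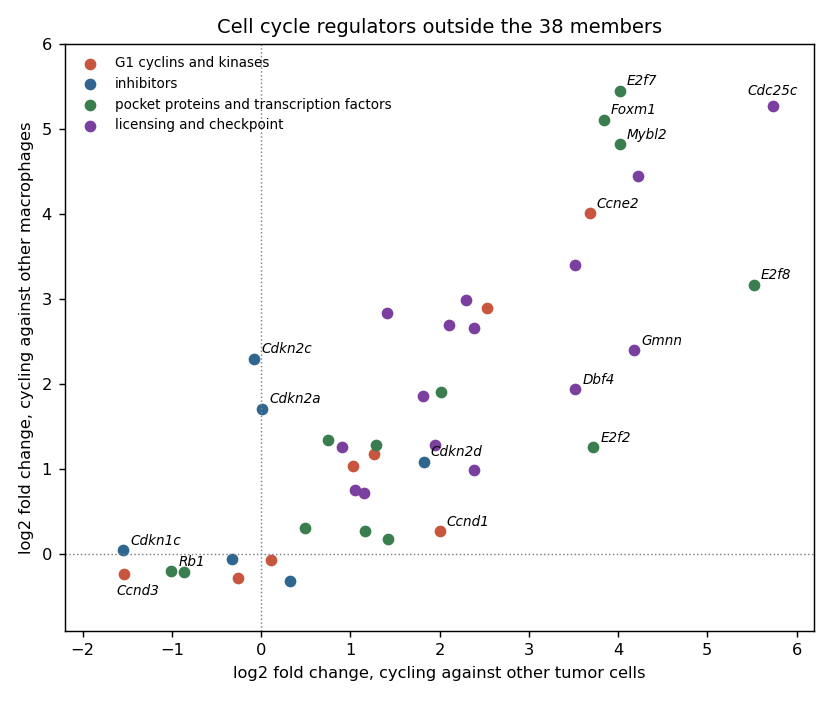
The log2 fold change between cycling and other cells is plotted for the cell cycle regulators outside the 38 members, in tumor cells (horizontal) against macrophages (vertical), coloured by list, with dotted lines at 0. Most regulators lie above 0 in both classes, Ccnd3 and Rb1 lie below 0 in both, and Cdkn2c is near 0 in tumor cells (−0.08) and at 2.30 in macrophages.

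Between G2/M-led and S-led cycling cells 13.6% of 14609 genes were higher and 14.4% lower in G2/M-led tumor cells, and 11.6% and 11.8% of 10672 in G2/M-led macrophages. All 23 G2/M members were higher and most S members lower (12 of 15 and 10 of 15), which the choice of cells fixes and from which nothing is read. Of the regulators 14 were higher and 15 lower in tumor cells, and 15 and 10 in macrophages. E2f1, of the S phase program, stood at 48.8 ± 3.81 CPM in S-led and 23.8 ± 2.62 in G2/M-led tumor cells, and at 70.1 ± 7.37 and 25.1 ± 2.38 in macrophages, with no overlap (−1.03 ± 0.05 and −1.52 ± 0.09). Ccne2 (cyclin E2) was lower in G2/M-led cells by −0.95 ± 0.07 and −1.26 ± 0.15, and Foxm1 was higher by 1.82 ± 0.08 and 2.65 ± 0.21. The inhibitor Cdkn2d (p19) rose from 9.13 ± 1.84 to 42.3 ± 4.72 CPM in tumor cells and from 30.3 ± 4.89 to 115 ± 13.7 in macrophages (2.22 ± 0.08 and 1.88 ± 0.09). Ccnd1 stood at 417 ± 52.6 and 420 ± 62.7 CPM in S-led and G2/M-led tumor cells (0.02 ± 0.05, edgeR adjusted p = 0.793), and fell from 436 ± 78.6 to 223 ± 55.8 CPM in macrophages (−1.03 ± 0.06, adjusted p = 3.08e-11).

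Between irradiated and control tumors edgeR called 0 of the 38 members in any class, and no member was called with DESeq2 or any other setting run. Over all genes edgeR called 0 in each class as fitted here, while DESeq2 called 6 in macrophages and edgeR with no count filter called 13 in T/NK, 5 in endothelial and 1 in dendritic cells. In tumor cells edgeR's quasi-likelihood test called 0 of 17494 genes (0%) and DESeq2 0, while 244 genes had an unadjusted p under 0.05 (1.39%) and 0 of 38 members did. The members' median log2 fold change was −0.07 for S and −0.07 for G2/M, beside 0.00 for all genes, with 12 members higher and 26 lower. The largest increase was that of Mki67, at 44.9, 44.8, 62.0 and 76.3 CPM in irradiated and 49.2, 43.0 and 42.5 in control tumors (0.27 ± 0.16, unadjusted p = 0.140). Irradiated 3 and 4 lay above all controls and irradiated 1 and 2 among them. Bub1b (0.13 ± 0.18) and Kif20b (0.06 ± 0.21) came next. The largest decreases were of Ccna2, at 64.5, 38.3, 64.8 and 51.1 against 44.0, 63.7 and 82.8 CPM (−0.30 ± 0.27), Ube2c, which tags cyclins for destruction (−0.28 ± 0.34), and Ccnb1, cyclin B1 (−0.23 ± 0.26). In each of them the groups overlapped. Top2a (−0.05 ± 0.22), Pcna (0.04 ± 0.14) and Mcm5 (0.06 ± 0.19) differed by less than their standard errors. Among regulators at 20 CPM or more, the largest differences were of Cdkn1c (−0.79 ± 0.38, edgeR adjusted p = 1.000) and Gmnn (−0.38 ± 0.26, edgeR adjusted p = 1.000), and 0 of 42 had an unadjusted p under 0.05. Here and below, fewer cycling cells and less transcript per cell cannot be told apart in the summed counts.

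In macrophages edgeR called 0 of 13270 genes (0%) and DESeq2 6, none of them a member, and 989 genes (7.45%) had an unadjusted p under 0.05. Of the members this was so of 1, Nusap1, which bundles spindle microtubules, at 23.9, 22.0, 27.8 and 25.2 CPM in irradiated and 27.7, 30.4 and 28.1 in control tumors (−0.23 ± 0.10, unadjusted p = 0.0417, edgeR adjusted p = 0.654). Irradiated 3 lay just above control 1. The members' medians were 0.04 for S and −0.08 for G2/M. Cenpa was the lowest at −0.40 ± 0.23, with 113, 76.5, 90.2 and 79.2 CPM against 78.9, 129 and 144, and Ccna2 gave −0.18 ± 0.15. The highest were subunits of the helicase, Mcm5 at 0.26 ± 0.14 and Mcm2 at 0.19 ± 0.09, followed by Bub1b at 0.13 ± 0.15. For Mcm2 the 4 irradiated values lay above all controls (25.2 ± 2.02 against 21.8 ± 0.604 CPM, unadjusted p = 0.0595). The share of all genes whose groups do not overlap is not given here, so nothing is read from this separation. Mki67 (0.11 ± 0.12), Top2a (0.04 ± 0.11) and Pcna (0.10 ± 0.08) overlapped. Of the regulators 4 of 42 had an unadjusted p under 0.05, of which Ccnd3 and Rbl1 were higher and Cdkn2a and Tfdp1 lower.

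**Figure D5:**
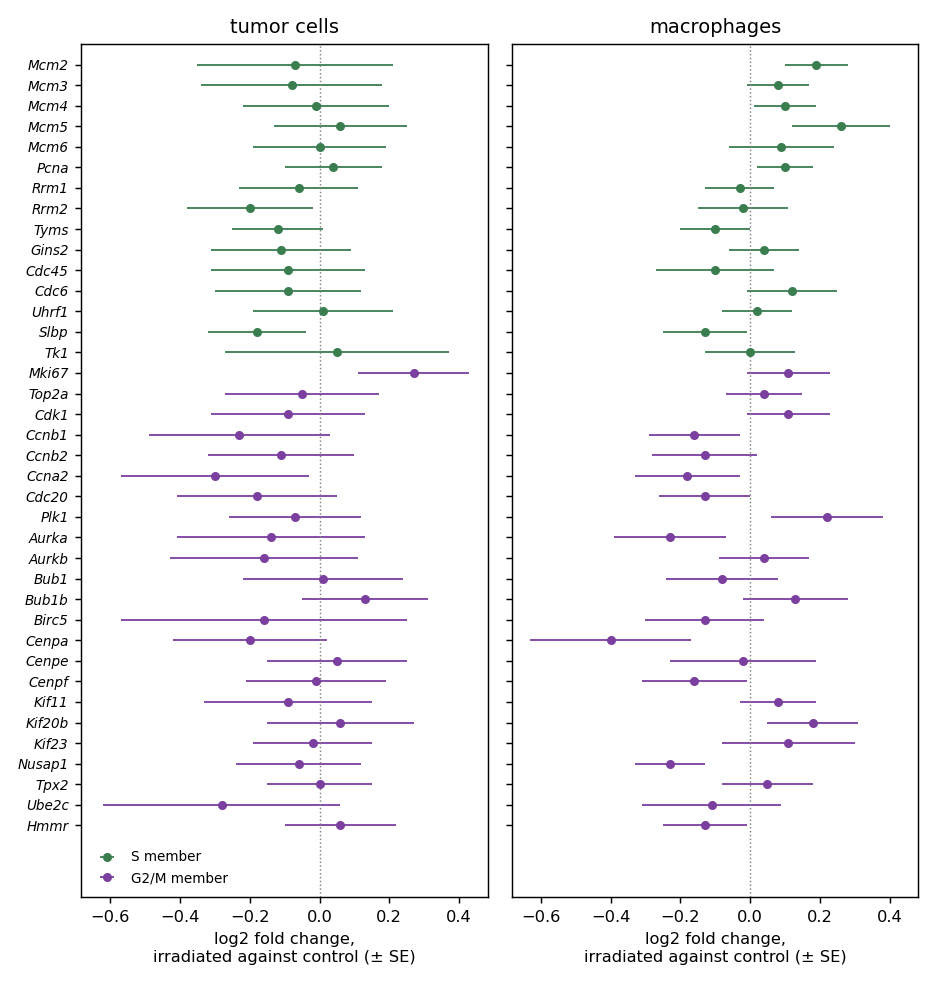
The log2 fold change of irradiated against control tumors (horizontal axis, points with SE bars) is plotted for each of the 38 members in tumor cells (left) and macrophages (right), S members in green and G2/M members in purple. Points lie on both sides of 0, from −0.30 (Ccna2) to 0.27 (Mki67) in tumor cells and from −0.40 (Cenpa) to 0.26 (Mcm5) in macrophages.

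Of the 38 members 30 passed the count filter in T/NK cells. Both edgeR (0 of 7542, 0%) and DESeq2 called 0 genes, with 406 (5.38%) at an unadjusted p under 0.05. Of the members this held for Mki67 alone, at 46.9, 102, 105 and 91.4 CPM in irradiated and 65.3, 33.6 and 55.6 in control tumors (0.67 ± 0.27, unadjusted p = 0.0272, edgeR adjusted p = 0.878). Irradiated 1 lay among the controls. Cenpf (0.68 ± 0.59) and Tpx2 (0.45 ± 0.37) were the other high members, and Cenpe (−0.66 ± 0.33), Ccna2 (−0.42 ± 0.50) and Tyms (−0.39 ± 0.36) the lowest. Top2a (−0.03 ± 0.25), Pcna (−0.10 ± 0.32) and Mcm5 (0.11 ± 0.60) showed no shift beyond their errors.

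In endothelial cells all 23 G2/M members had a positive fold change, with a median of 0.93, while the S members had a median of −0.08. Neither edgeR (0 of 8678 genes, 0%) nor DESeq2 called a gene, 313 genes (3.61%) had an unadjusted p under 0.05, and of 36 members tested this was so of Birc5, at 54.3, 187, 53.0 and 115 CPM in irradiated and 44.1, 25.5 and 51.1 in control tumors (1.17 ± 0.45, unadjusted p = 0.0278). The largest increases were of Cenpe (1.47 ± 0.75), Hmmr (1.42 ± 0.81) and Cdc20 (1.40 ± 0.93), and the largest decreases of Mcm2 (−0.60 ± 0.38), Slbp (−0.60 ± 0.35) and Mcm3 (−0.30 ± 0.33). Cdc20 stood at 126 CPM in irradiated 2 and 69.6 in irradiated 4, and at 9.28 to 25.6 in the other 5 tumors. These are the tumors in which 3 cells held 91.4 and 91.3% of the G2/M UMIs. With them the G2/M sum was 1452 ± 908 CPM in irradiated and 741 ± 381 in control tumors, and without them it was 727 against 741 CPM, with 11 of 23 members higher. Mki67 (0.95 ± 0.58), Top2a (0.17 ± 0.59), Pcna (−0.23 ± 0.27) and Mcm5 (−0.34 ± 0.42) overlapped between the groups.

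In dendritic cells, without irradiated 2, 21 of 38 members passed the count filter. Again edgeR (0 of 5150, 0%) and DESeq2 called 0 genes, 170 (3.30%) had an unadjusted p under 0.05, and so had 3 members. Nusap1 stood at 76.1, 76.0 and 49.8 CPM in irradiated 1, 3 and 4 and at 22.0, 17.4 and 11.7 in controls (1.88 ± 0.41, unadjusted p = 0.000331, edgeR adjusted p = 0.647), and the groups did not overlap. Kif23 (0.90 ± 0.40) did not overlap either, and Cenpa gave 0.66 ± 0.31. Without the share of all genes whose groups do not overlap, nothing is read from the separation of Nusap1 and Kif23. Kif11 (1.29 ± 0.60) was the other high member, and Ccna2 (−0.49 ± 0.49), Tk1 (−0.34 ± 0.45) and Pcna (−0.23 ± 0.35) were the lowest. Mki67 gave 0.05 ± 0.37 and Top2a 0.62 ± 0.31, and Mcm5 did not pass the filter. In the 6 tumors of the fit the 3 richest dendritic cells held 64.3 to 90.2% of the G2/M UMIs, so each value rests on few cells.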

How the data were processed

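Single-cell RNA was measured in 7 tumors, 1 library each, on the 10x Genomics 3′ platform after papain digestion. The authors deposited filtered matrices of raw UMI counts per gene and cell. The matrix headers name Cell Ranger 8.0.0, and the submitters' processing notes name Cell Ranger, the mm10 build and Seurat 4.4. Groups came from the sample titles, and the same replicate number in both groups marks no shared mouse. No cell annotation was used.

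Cells were removed where depth, detected genes, mitochondrial share or ribosomal share lay more than 3 median absolute deviations from the median of the library. Cells were gated by the mean of their 5 highest markers per list, each scaled to its 0.95 quantile, with a lowest score of 0.3 and Xist absent from tumor cells, which therefore hold 0% Xist by construction. The scoring rule was set after the data were seen. No doublet caller was run, but cells whose second score exceeded 0.9 of the best stayed ungated. Thinning to 3000 UMIs used random seed 1. Intervals and shares cover counting error only, and depth per library is given in the text.

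UMIs were summed per tumor and class (at least 20 cells), filtered with filterByExpr and tested with edgeR 4.0.16 (TMM, robust quasi-likelihood fit, R 4.3.3) at an adjusted p of 0.05, over all genes. Irradiation was fitted on the 7 tumors with no covariate and classes with tumor as block. DESeq2 1.42.0, other scalings, no filter, a stricter gate (0.6), other depths, a replicate block, a term for technical set and leaving out each tumor were alternatives. The SE of a fold change is its size divided by the root of the F statistic. The scripts were tested on simulated data. Named members were, in each class, the 3 highest and 3 lowest changes at 20 CPM or more, plus Mki67, Top2a, Pcna and Mcm5, and the 2 largest regulator changes in tumor cells. The members, lists and alternatives were chosen with earlier results of these data known. The cycling comparisons, the regulators and tumor markers named in them, and the members named between classes were chosen after their values were seen.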

Additional observations from a re-analysis of the deposited data

Results flagged for a closer look

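In groups of 4 tumors, 8 of 154 sets of member levels (5.19%) had a tumor that stood apart by Dixon's criterion, which chance alone reaches in about 1 set in 20. In tumor cells, irradiated 2 was low for the centromere histone Cenpa (54.2 CPM, against 82.4 to 88.1 in the other irradiated tumors) and for the spindle protein Nusap1 (21.6, against 33.0 to 34.6). In macrophages, irradiated 1 was high for the histone mRNA binder Slbp (80.6, against 65.9 to 66.4). Irradiated 4 was high for the kinetochore motor Cenpe in T/NK cells (29.7, against 13.8 to 16.1). In endothelial cells, irradiated 2, with 21 cells, was high for the checkpoint kinase Bub1b (56.1, against 15.7 to 21.4). In dendritic cells, irradiated 2, with 17 cells, was high for Bub1b (69.0, against at most 24.0), and irradiated 3, with 23 cells, was high for thymidylate synthase Tyms (64.6, against 19.6 to 24.6) and low for Ube2c (26.6, against 101 to 108). The part of cell number in these values was not tested.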

How the results depend on the processing

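No member was called with irradiation under any alternative run, in any class. The counts of all genes called with irradiation changed from 0 to 6 with DESeq2 in macrophages, to 3 with technical set as a term and 13 with no filter in T/NK cells, to 5 with no filter in endothelial cells and to 1 with no filter in dendritic cells. Leaving out each tumor gave 0 to 1 genes in T/NK cells (1 without irradiated 1), 0 to 2 in endothelial cells (2 without control 1), 0 to 1 in dendritic cells (1 without irradiated 1), and 0 in tumor cells and macrophages. Correlations of same-numbered tumors were −0.45, −0.04 and 0.13. So few pairs, with no differently numbered pairs beside them, cannot decide whether the replicate numbers pair the tumors. With a replicate block 2 genes were called in dendritic cells and 0 in the other classes, and the share differences were −1.85, −2.48, −0.459, 1.64 and −7.98 points in tumor, macrophage, T/NK, endothelial and dendritic cells.

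The irradiation difference in the macrophage share was −0.550 points at 2000 UMIs, −5.18 at 5000, 6.23 without thinning, −0.132 at 5 or more member UMIs and −0.243 within set 2. In T/NK cells it was −16.0 points at 5000 UMIs, 13.8 without thinning and −6.08 within set 1. In endothelial cells it was −5.47 at 5000 UMIs, −7.44 at 2 or more member UMIs and −8.28 within set 2, and in dendritic cells 5.15 without thinning. Leaving out each tumor gave −2.56 to 3.89 points in tumor cells, −3.28 to −1.16 in macrophages, −1.74 to 2.99 in T/NK, −3.73 to 7.05 in endothelial and −12.7 to −2.42 in dendritic cells. The difference in log2 S to G2/M ratio within a set was −0.06 in macrophages (set 2), 0.31 in T/NK cells (set 2), 0.11 in endothelial cells (set 1) and 0.07 in dendritic cells (set 2). The cause was not tested.

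Between macrophages and tumor cells, scaling by library size turned the sign of 10 members: Aurkb −0.30, Bub1 −0.42, Ccnb2 −0.42, Mcm4 −0.22, Mcm5 −0.10, Mcm6 −0.10, Mki67 −0.06, Nusap1 −0.21, Rrm1 −0.25 and Slbp −0.20, against 0.15, 0.03, 0.02, 0.23, 0.35, 0.35, 0.39, 0.24, 0.20 and 0.25 with TMM. The endothelial split of all called genes was 3888 higher and 6011 lower, 4563 and 4471 with DESeq2 and 4645 and 4633 by library size. Member calls ranged from 20 to 26 in macrophages, 25 to 30 in T/NK, 9 to 16 in endothelial and 8 to 15 in dendritic cells when each tumor was left out. Between G2/M-led and S-led cells DESeq2 called 2646 genes in tumor cells (4095 with edgeR) and 1223 in macrophages (2496). Few cells limit the endothelial and dendritic values, and shallow cells the T/NK shares.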
